A study of Mus musculus with 24 samples.

Results

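Pyramidal neurons of the cerebral cortex are stacked in layers, and each layer can be recognised by genes its neurons express. A set of 9 such genes was followed in bulk RNA-seq of the prefrontal cortex (PFC) of stressed mice: Slc17a7 and Camk2a, which mark excitatory neurons of all layers, Cux2 and Rorb, which mark the upper layers, and Fezf2, Bcl11b, Tbr1, Tle4 and Foxp2, which mark the deep layers. The genes were chosen by symbol as textbook layer markers, and 8 of the 9 had a row among the 14074 genes of the normalized count table used. Foxp2 was not analysed here. Each of the 24 libraries came from 1 male C57BL/6 mouse, and the 6 groups held 4 mice each. Control mice were not defeated. PS and AS mice had been defeated by aggressive CD1 mice during 30 days of chronic social defeat stress, and were sorted by hierarchical clustering of their behavior into a passive (PS) and an active (AS) coping strategy. Within each of the 3 phenotypes, mice received either saline or 2 mg/kg of dexamethasone (DEX), a synthetic agonist of the glucocorticoid receptor, and the PFC was collected 6 h later. Coping strategy was therefore a class built from behavior and not an assigned treatment, and the control mice differed from both stressed classes in housing as well as in defeat. The dissected block held secondary motor, anterior cingulate, orbital, prelimbic and infralimbic cortex, cut after the olfactory bulbs had been removed.

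Slc17a7 encodes the vesicular glutamate transporter VGLUT1, which loads glutamate into synaptic vesicles, and Camk2a encodes the alpha subunit of the calcium/calmodulin-dependent kinase II of excitatory synapses. Cux2 is a homeodomain factor of upper-layer neurons that connect cortical areas with each other, and Rorb is a nuclear receptor best known from layer 4 and the neighbouring layers. Fezf2 and Bcl11b (also named Ctip2) act together in the specification of the layer 5 neurons that project to the spinal cord and brainstem. Tbr1 is a T-box factor of corticothalamic neurons of layer 6 that is also found in other glutamatergic neurons, and Tle4 is a corepressor typical of layer 6. Bcl11b is in addition a gene of the medium spiny neurons of the striatum, which lies beside and beneath the frontal cortex. In bulk tissue, a lower value can come from fewer cells of a type or from less RNA per cell, and these cannot be told apart.

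Depth, counted as whole reads recovered from the normalized counts, ran from 21121869 to 59439645 reads per library, with group medians of 34242531.5 and 37876626.0 reads in the AS groups against 22869703.0 to 24187702.0 in the other groups. The glucocorticoid receptor targets Fkbp5, Tsc22d3 and Sgk1 were higher in every DEX library than in every saline library of the same phenotype, as the treatment labels give them. Markers of the olfactory bulb (Eomes, Cdhr1, Doc2g and Th, with Tbx21 having no row) summed to over 1000 normalized counts in 4 libraries, namely 4709 in mouse 117 (control, saline), 3719 in mouse 34 (PS, DEX), 1691 in mouse 14 (AS, saline) and 1653 in mouse 2 (PS, saline). In the other 20 libraries the same sum lay between 105 and 938. Results that changed without those 4 libraries are given with their values beside them. Of 12 striatal markers, 6 had a row, and their summed level lay between 4900.2 and 8018 normalized counts. Defining markers of striatal neurons such as Drd2 and Adora2a had none, so that they could not be read.

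The layer markers were all well above the detection limit, and the lowest value of any of them in any library rested on 279 reads. Divided by the annotated exon length, the mean over the 24 libraries was 17506.7 normalized counts per kb for Camk2a (ENSMUSG00000024617.16, chr18:60925618-60988152, plus strand of mm10). It was 8574 per kb for Slc17a7 (ENSMUSG00000070570.5, chr7:45163949-45176142, plus strand), 733 for Tbr1 (ENSMUSG00000035033.15, chr2:61802930-61814114, plus strand) and 579 for Cux2 (ENSMUSG00000042589.18, chr5:121856366-122050102, minus strand). Lower levels per kb were found for Fezf2 (279.8, ENSMUSG00000021743.6, chr14:12342094-12348189, minus strand) and Bcl11b (188, ENSMUSG00000048251.15, chr12:107910403-108003602, minus strand). The last 2 were Tle4 (143, ENSMUSG00000024642.17, chr19:14448150-14598051, minus strand) and Rorb (114, ENSMUSG00000036192.15, chr19:18930605-19111196, minus strand). The markers shared by all layers thus stood far above the layer-specific transcription factors. Neighbours in this order kept their places in 21 to 24 of the 24 libraries, with Tbr1 over Cux2 and Bcl11b over Tle4 the least regular, at 21 libraries each.

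**Figure D1:**
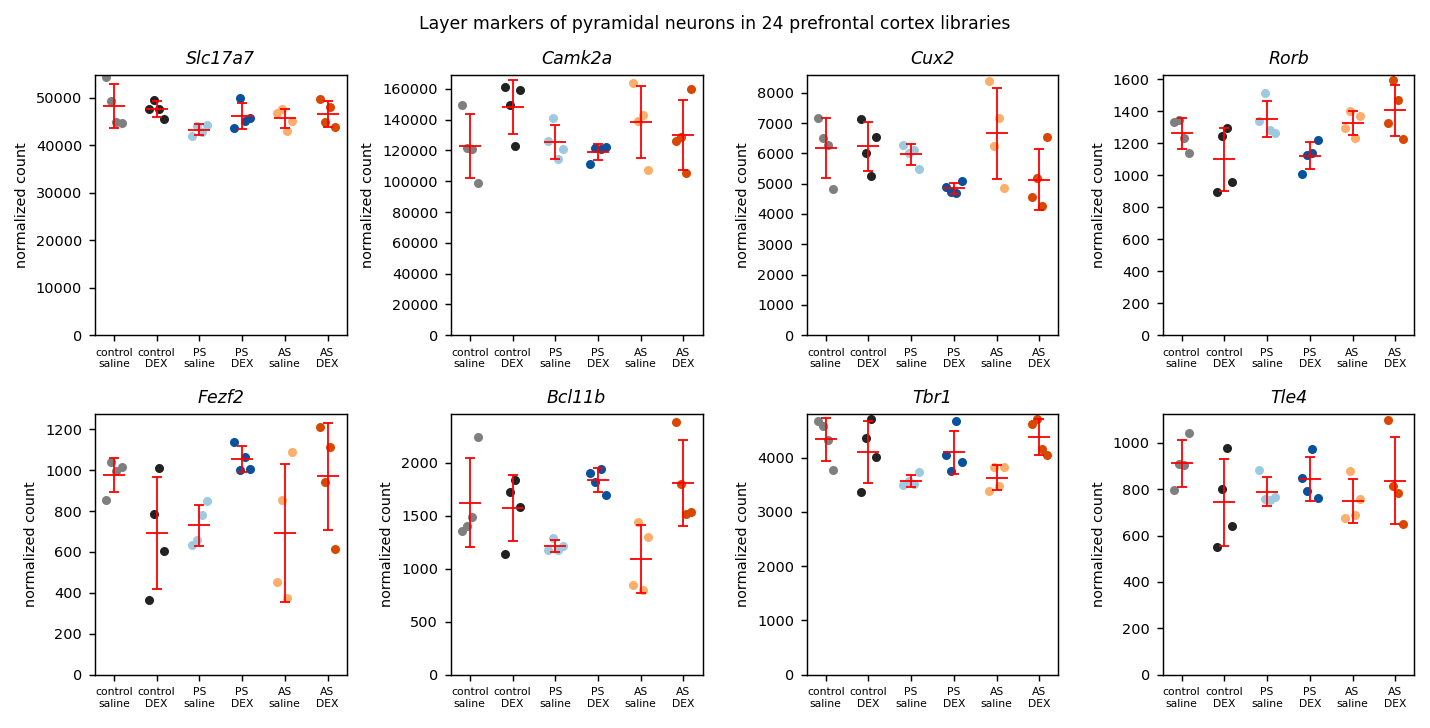
Normalized counts (y axis, from 0) of the 8 layer markers in the 6 groups (x axis), with a point for each of the 4 libraries of a group and a red line and bar for the mean and SD. Slc17a7 spans 41898 to 54240.1 over all libraries, whereas Fezf2 spans 364 to 1211, and the Bcl11b values of DEX-treated PS and AS mice lie above those of the saline-treated mice of the same phenotype.

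Across the 6 groups, 3 of the 8 markers differed in limma's F test at a Benjamini-Hochberg adjusted p under 0.1, the threshold used throughout and applied over all 14074 genes. These were Bcl11b (limma adjusted p = 0.0174), Rorb (0.0651) and Tbr1 (0.0782). Of all genes, 14.8% passed the same test. Cux2 (limma adjusted p = 0.153), Fezf2 (0.198), Camk2a (0.510), Tle4 (0.547) and Slc17a7 (0.575) did not pass it. The call of Bcl11b held when any 1 of the 24 libraries was left out, with limma adjusted p between 0.00618 and 0.0555. That of Rorb was lost without mouse 101 or 122 (control, DEX), mouse 6 (PS, DEX) or mouse 42 (AS, DEX), with limma adjusted p up to 0.145, and without the 4 libraries with olfactory bulb markers (0.140). That of Tbr1 was lost when any of 14 libraries was left out, with limma adjusted p up to 0.141. Those 14 were mice 106, 107 and 109 (control, saline), 108 and 122 (control, DEX), 2, 28, 62 and 68 (PS, saline), 6 (PS, DEX), 8 and 40 (AS, saline) and 38 and 42 (AS, DEX).

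Bcl11b was the layer marker with the clearest DEX response, and it was found in stressed animals. In PS mice it measured 1172, 1287, 1176 and 1218 normalized counts with saline and 1899, 1819, 1944 and 1692 with DEX. The 2 groups did not overlap, and the gap between them was wider than the range of either group. The mean rose from 1213 ± 53.3 to 1838 ± 110.3 (SD, n = 4), a log2 fold change of 0.60 ± 0.18 (SE, limma adjusted p = 0.0714). In AS mice Bcl11b measured 848, 1436, 794 and 1294 with saline and 2381, 1801, 1513 and 1534 with DEX. Here too every DEX value lay above every saline value, although the saline group fell into a lower pair, mice 8 and 40, and a higher pair, mice 14 and 44. The mean rose from 1093 ± 320.2 to 1807 ± 404 (SD, n = 4), a log2 fold change of 0.75 ± 0.18 (SE, limma adjusted p = 0.0137). In control mice the values were 1353, 1400.5, 1490.2 and 2247 with saline and 1134, 1722, 1841 and 1582 with DEX. These overlapped, and the difference was -0.04 on the log2 scale with a 95% interval from -0.42 to 0.34.

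The rise of Bcl11b in AS mice kept its call without any single library, with log2 fold changes from 0.61 to 0.89. In PS mice the size was as stable, from 0.57 to 0.64, but the call was lost without any of the 4 PS saline mice (2, 28, 62 or 68) or without mouse 6, 34 or 52 of the PS DEX group, with limma adjusted p up to 0.169. It was also lost without the 4 libraries with olfactory bulb markers, at a log2 fold change of 0.59 (limma adjusted p = 0.120). Averaged over the 3 phenotypes, the common DEX effect on Bcl11b was 0.44 ± 0.11 on the log2 scale (SE, limma adjusted p = 0.00589), and it was called without each of the 24 libraries in turn.

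Tbr1 moved the same way over a smaller range. AS mice had 3381, 3827, 3478 and 3832 normalized counts with saline and 4612, 4702, 4149 and 4051 with DEX. All DEX values again exceeded all saline values, and the mean rose from 3629.5 ± 234 to 4379 ± 326 (SD, n = 4), a log2 fold change of 0.27 ± 0.09 (SE, limma adjusted p = 0.0762). This call was lost without mouse 8 or 40 (AS, saline) or mouse 38 or 42 (AS, DEX), with limma adjusted p from 0.172 to 0.232. PS mice had 3496, 3568, 3503 and 3729 with saline and 4041, 3744, 4672 and 3924 with DEX. The groups did not overlap in PS mice either, but the lowest DEX value, that of mouse 34, was close to the highest saline value, and the log2 fold change of 0.19 did not pass the test (95% interval 0.01 to 0.37, limma adjusted p = 0.329). Control mice had 4666, 4584, 4317 and 3779 with saline and 3363, 4351, 4708 and 4013 with DEX, which overlapped over most of their range.

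Fezf2 varied most of all the layer markers, with a 3.32-fold range over the libraries. In PS mice it measured 636, 656, 779 and 848 normalized counts with saline and 1138, 1003, 1066 and 1004 with DEX. These groups did not overlap, yet the log2 fold change of 0.54 missed the threshold in the model that takes the spread from all groups (95% interval -0.04 to 1.11, limma adjusted p = 0.420). When the model held the 2 PS groups alone, Fezf2 was called, together with Cux2, Rorb and Bcl11b. In AS mice Fezf2 measured 451, 855, 376 and 1088 with saline and 1211, 941, 1114 and 615 with DEX. Mouse 72 of the DEX group lay below both mice 14 and 44 of the saline group, so that the groups overlapped, and the log2 fold change was 0.58 (95% interval 0.00 to 1.15, limma adjusted p = 0.271). In control mice the order was the opposite, with 856, 1040.2, 996 and 1018 in saline and 364, 788, 1011 and 606 in DEX, a log2 fold change of -0.59 (95% interval -1.16 to -0.02, limma adjusted p = 0.305).

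Tle4, the layer 6 corepressor, measured 752 to 882 normalized counts in PS mice with saline and 763 to 976 with DEX, and 675 to 878 and 649 to 1098 in AS mice. The groups overlapped in both phenotypes, with log2 fold changes of 0.09 (95% interval -0.21 to 0.40) and 0.14 (-0.17 to 0.45). Control mice had 796 to 1044 with saline and 549.8 to 979 with DEX, at a log2 fold change of -0.32 (95% interval -0.63 to -0.02, limma adjusted p = 0.288).

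Counted together, 1 of the 8 layer markers was called in PS mice after DEX, against 5.36% of all genes, and 2 of 8 in AS mice, against 8.77%. Each of these calls was a rise, a direction that 2.74% and 3.82% of all genes took with a call. The 4 DEX libraries of PS mice lay above the 4 saline libraries for 3 markers (Fezf2, Bcl11b and Tbr1), as they did for 5.54% of all genes, and below them for 2 (Cux2 and Rorb), as for 4.57%. In AS mice 2 markers (Bcl11b and Tbr1) lay wholly above, as did 4% of all genes. The common effect over the phenotypes called 2 of the 8 (Bcl11b up, Cux2 down), against 15.5% of all genes, with 7.46% called up and 8.01% called down.

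Of the upper-layer markers, Cux2 was called in the common DEX effect but not after DEX in any single phenotype in the model of all 24 libraries. PS mice had 6264, 6005, 6126 and 5473 normalized counts with saline and 4875, 4712, 4687 and 5104 with DEX. The 4 DEX values lay below all saline values, with a mean of 4845 ± 192 against 5967 ± 346 (SD, n = 4), at a log2 fold change of -0.30 (95% interval -0.59 to -0.01, limma adjusted p = 0.345). AS mice had 8385, 6229, 7176 and 4844 with saline and 4552, 5178, 4259 and 6528 with DEX. The ranges overlapped, since mouse 44 of the saline group was as low as the DEX mice and mouse 72 of the DEX group was higher than the rest, and the log2 fold change was -0.37 (95% interval -0.66 to -0.08, limma adjusted p = 0.141). This difference was called by DESeq2, with quantile normalization, and without mouse 44 (AS, saline) or mouse 72 (AS, DEX). Control mice had 7178, 6489.8, 6266 and 4824 with saline and 7142, 5997, 5241 and 6525 with DEX, a log2 fold change of 0.01. Over the 3 phenotypes Cux2 fell by 0.22 on the log2 scale in the common DEX effect (SE 0.08, limma adjusted p = 0.0906). It was called without mouse 117 (control, saline), 101 (control, DEX), 68 (PS, saline), 44 (AS, saline), 56 (PS, DEX) or 72 (AS, DEX), and lost without any of the other 18, with limma adjusted p up to 0.178. Those 18 were mice 106, 107 and 109 (control, saline), 108, 112 and 122 (control, DEX), 2, 28 and 62 (PS, saline), 6, 34 and 52 (PS, DEX), 8, 14 and 40 (AS, saline) and 38, 42 and 60 (AS, DEX).

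Rorb followed another pattern from Cux2. It measured 1338, 1516, 1284 and 1265 normalized counts in PS mice with saline and 1009, 1125, 1135 and 1218 with DEX, which did not overlap (log2 fold change -0.27, 95% interval -0.48 to -0.05, limma adjusted p = 0.194). In AS mice it measured 1293, 1403, 1233 and 1368 with saline and 1328, 1593, 1467 and 1227 with DEX, with overlap and a log2 fold change of 0.08. In control mice the values were 1329.6, 1346, 1234 and 1136 with saline and 897, 1243, 1293 and 959.6 with DEX (log2 fold change -0.21). The group means ran from 1098 ± 199 in control mice with DEX to 1404 ± 160.0 in AS mice with DEX (SD, n = 4), and no comparison of a pair of groups called Rorb in the model of all 24 libraries. In the model of the 2 PS groups alone it was called after DEX.

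Neither marker of all pyramidal neurons was called after DEX in that model. Slc17a7 had the narrowest range, 1.29-fold from the lowest to the highest library, and its pooled SD within groups was at the percentile 10.6 of the genes that averaged 100 normalized counts or more. Its DEX differences were -0.02 (95% interval -0.16 to 0.13) in control, 0.09 (-0.05 to 0.24) in PS and 0.03 (-0.11 to 0.18) in AS mice on the log2 scale. Camk2a ranged from 98778 to 163797 normalized counts. Its DEX difference was 0.28 in control mice (95% interval -0.01 to 0.57, limma adjusted p = 0.343), with 122831 to 161276 in DEX and 98778 to 149778 in saline libraries, and -0.07 and -0.09 in PS and AS mice.

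**Figure D2:**
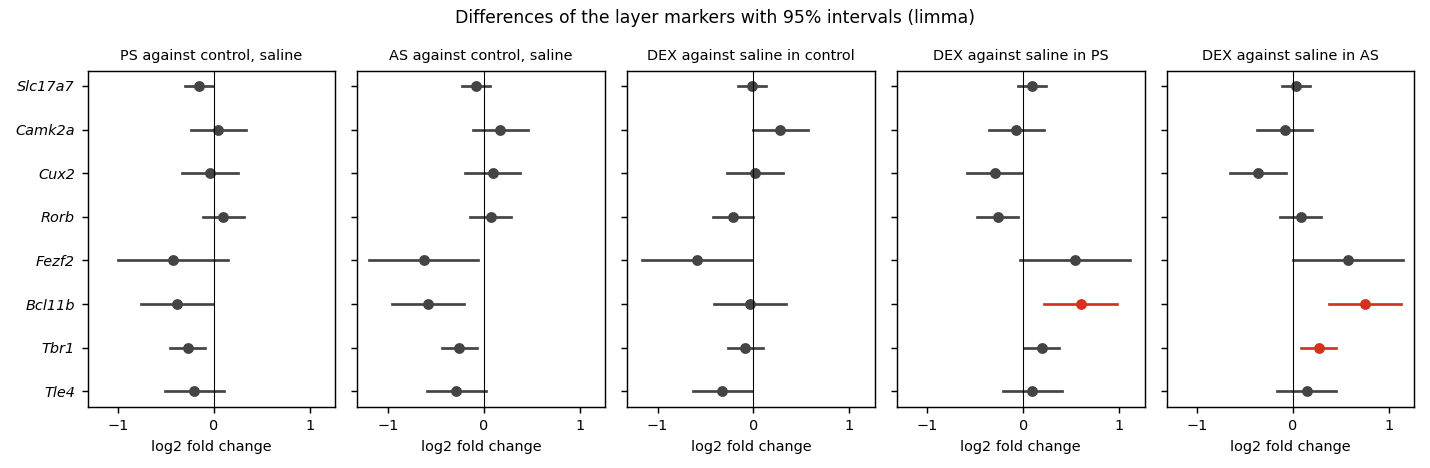
Log2 fold changes (x axis) of the 8 layer markers (y axis) in 5 comparisons, with points for the limma estimate and bars for its 95% interval, red where the adjusted p was under 0.1. Bcl11b is red after DEX in PS mice (0.60) and AS mice (0.75), Tbr1 in AS mice (0.27), and no marker is red in the other 3 panels.

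In control mice DEX called 0 of the 8 layer markers in limma, edgeR and DESeq2, against 6.49% of all genes in limma. Of the 8, 3 (Fezf2, Tle4 and Rorb) had an unadjusted p under 0.05 in limma, as did 2154 of all 14074 genes. The median difference of the 4 deep-layer markers was -0.20 in control mice, 0.36 in PS mice and 0.42 in AS mice on the log2 scale, while the median of all genes was -0.01, -0.00 and 0.00. For the upper-layer pair the median was -0.10, -0.28 and -0.14.

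Whether stressed and control animals differed in their DEX response was tested by the interaction. The interaction in PS called 0 of the 8 in limma, edgeR and DESeq2, and 3 had an unadjusted p under 0.05 in limma. Of all genes, 0% were called in limma, at 1404 genes with an unadjusted p under 0.05. The log2 differences between the PS and control responses were 1.13 ± 0.39 for Fezf2 (SE, limma adjusted p = 0.367), 0.64 ± 0.26 for Bcl11b (0.423) and 0.28 ± 0.13 for Tbr1 (0.465). The interaction in AS called 0 of 8 in limma and edgeR and 1 (Bcl11b) in DESeq2, against 0.348% of all genes in limma. An unadjusted p under 0.05 in limma was found for 1902 of all 14074 genes and for 4 of the 8. These 4 were the deep-layer markers, at 1.16 ± 0.39 for Fezf2 (SE, limma adjusted p = 0.182), 0.79 ± 0.26 for Bcl11b (0.172), 0.35 ± 0.13 for Tbr1 (0.202) and 0.47 ± 0.21 for Tle4 (0.329). Without mouse 112 (control, DEX) limma called Fezf2, Bcl11b and Tbr1 in the AS interaction, and without mouse 44 (AS, saline) it called Fezf2 and Bcl11b. The PS and AS interactions share the 8 control libraries. The difference of the Bcl11b response between AS and control mice thus did not pass the test over all 14074 genes, and its 95% interval ran from 0.25 to 1.32.

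Stress without DEX was compared in the saline groups. In PS mice 0 of the 8 layer markers were called by limma and edgeR and 1 (Tbr1) by DESeq2, against 1.51% of all genes in limma. Of the 8, 3 had an unadjusted p under 0.05 in limma, as did 1850 of all 14074 genes. The 4 PS libraries lay below the 4 control libraries for Slc17a7, Fezf2, Bcl11b and Tbr1, a separation that 6.12% of all genes showed in that direction. Tbr1 had means of 3574 ± 108 in PS and 4336 ± 400.5 in control mice (SD, n = 4), at a log2 fold change of -0.27 (95% interval -0.46 to -0.09, limma adjusted p = 0.159). It was called without mouse 101 of the control DEX group, which entered the estimate of the spread. Bcl11b differed by -0.39 (95% interval -0.76 to -0.01, limma adjusted p = 0.364), Fezf2 by -0.43 (-1.0 to 0.15, 0.537) and Slc17a7 by -0.15 (-0.30 to -0.01, 0.346). When the model held the 2 groups alone, Fezf2 and Tbr1 were called. The control saline group included mouse 117, whose Bcl11b value of 2247 stood apart from the 1353 to 1490.2 of the others and whose olfactory bulb and oligodendrocyte markers were the highest of all libraries.

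AS mice with saline differed from controls by -0.58 for Bcl11b (95% interval -0.96 to -0.21, limma adjusted p = 0.249), -0.63 for Fezf2 (-1.20 to -0.06, 0.412) and -0.25 for Tbr1 (-0.44 to -0.07, 0.306) on the log2 scale. None of the 8 was called by limma, edgeR or DESeq2 against 0.156% of all genes in limma. Of the 8, 3 had an unadjusted p under 0.05 in limma, as did 1548 of all 14074 genes. Between PS and AS mice with saline, limma called 0% of all genes, and 671 of 14074 had an unadjusted p under 0.05. PS and AS mice differed in 0 of the 8 by limma, edgeR and DESeq2, with 0 at an unadjusted p under 0.05. Fezf2 differed between them by -0.20 (95% interval -0.77 to 0.37) and Tbr1 by 0.02 (-0.16 to 0.20), intervals that leave room for differences of either sign. With both stressed classes in 1 contrast against control, 0 of 8 were called by limma and edgeR and 2 (Bcl11b and Tbr1) by DESeq2, against 1.49% of all genes in limma. In this contrast 3 of the 8 had an unadjusted p under 0.05 in limma, as did 2028 of all 14074 genes. Tbr1 then differed by -0.26 (limma adjusted p = 0.114) and Bcl11b by -0.49 (0.155). Limma called Tbr1 without mouse 117, 101, 112, 52 or 60, and Bcl11b without mouse 14.

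The single libraries differed in their mix of layer markers within every group. A score per library was taken as the mean log2 deviation of Cux2 and Rorb from their means over the 24 libraries for the upper layers, and likewise of Fezf2, Bcl11b, Tbr1 and Tle4 for the deep layers. The deep-layer score was lowest in mouse 40 (-0.61) and mouse 8 (-0.53) of the AS saline group and in mouse 101 (-0.58) of the control DEX group, and highest in mouse 38 (0.48) of the AS DEX group. Those 3 low libraries stood well apart from the remaining libraries, of which the next lowest was at -0.19. Upper minus deep ranged from -0.61 in mouse 38 to 0.83 in mouse 8. Its group means were 0.40 ± 0.46 in AS mice with saline and -0.17 ± 0.35 with DEX, 0.24 ± 0.12 and -0.40 ± 0.16 in PS mice, and -0.11 ± 0.28 and 0.04 ± 0.35 in control mice (SD, n = 4). PS mice had the least spread within groups by this measure. Without mouse 8 the Bcl11b difference after DEX in AS mice was 0.64 (limma adjusted p = 0.0748), without mouse 40 it was 0.61 (0.0773), and without mouse 38 it was 0.61 (0.0631).

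**Figure D3:**
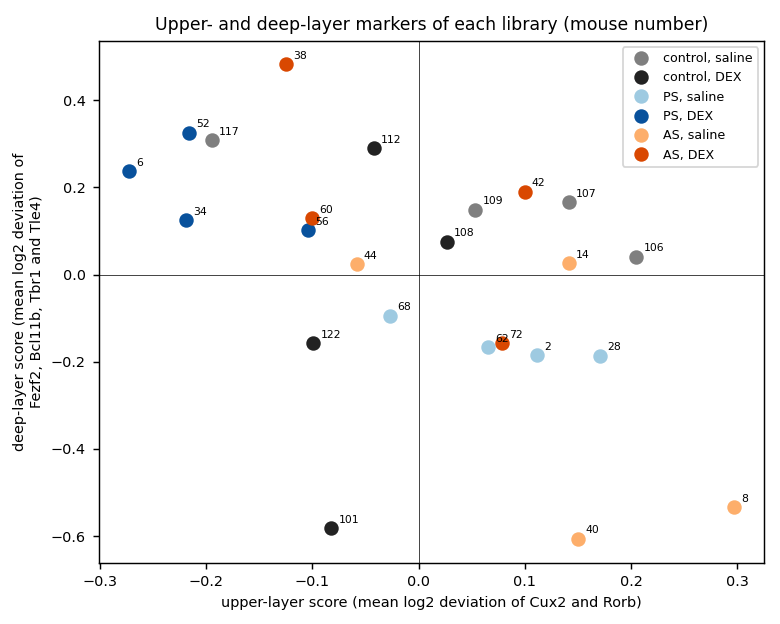
Deep-layer score (y axis, mean log2 deviation of Fezf2, Bcl11b, Tbr1 and Tle4) against upper-layer score (x axis, mean log2 deviation of Cux2 and Rorb) of the 24 libraries, each a point labelled with its mouse number and coloured by group. The PS DEX libraries lie at the upper left and the PS saline libraries to the lower right of them, and mice 8, 40 and 101 have the lowest deep-layer scores, -0.53, -0.61 and -0.58.

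Pooled SD within groups placed Fezf2 at the percentile 98.9 of the genes that averaged 100 normalized counts or more, Bcl11b at 95.2, Tle4 at 90.2 and Cux2 at 88.3. These markers varied with each other. Over the 24 libraries, Cux2 and Fezf2 had a Pearson r of -0.79 (permutation p = 1e-05, the smallest that 100000 resamples give, adjusted over 28 pairs 0.00014) and a Spearman rho of -0.80 (permutation p = 3e-05, adjusted 0.00084). Without mice 8 and 60, the farthest from the median of Cux2, r was -0.76, and after subtraction of the group means it was -0.81. Fezf2 and Bcl11b had r = 0.76 (permutation p = 3e-05, adjusted 0.000168) and rho = 0.68 (permutation p = 0.00035, adjusted 0.0014), with r = 0.68 without mice 101 and 40 and 0.76 within groups. Camk2a, although expressed in all layers, went with Cux2 at r = 0.78 (permutation p = 2e-05, adjusted 0.00014) and rho = 0.73 (permutation p = 0.00012, adjusted 0.00112). That pair had r = 0.71 without mice 101 and 8 and 0.90 within groups. Within groups, r among the 4 deep-layer markers ran from 0.40 for Bcl11b and Tbr1 to 0.78 for Bcl11b and Tle4. Rorb did not go with Cux2 (r = -0.27 within groups), and its highest r within groups was 0.66, with Tbr1, a pair that had r = 0.23 (permutation p = 0.279) with the group differences left in. Libraries of 1 group thus differed along an axis with Cux2 and Camk2a at one end and Fezf2, Bcl11b and Tle4 at the other.

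**Figure D4:**
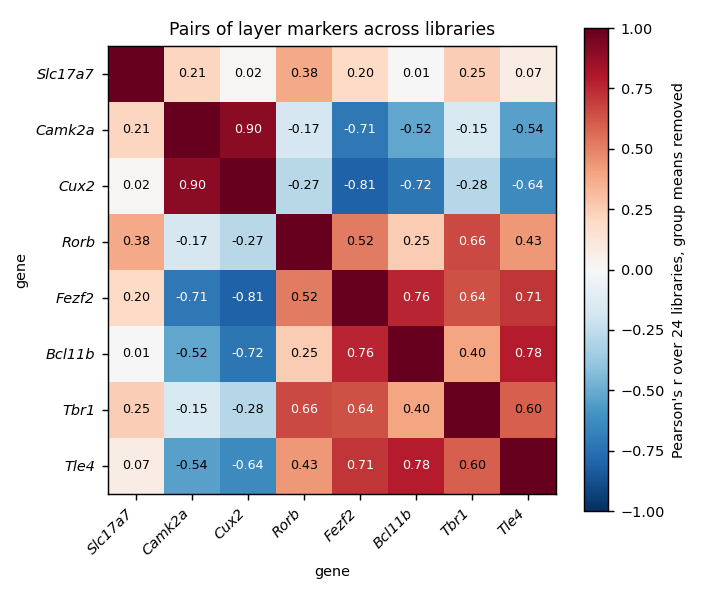
Pearson's r (colour and number, from -1 to 1) between the log2 values of each pair of the 8 layer markers (both axes) over the 24 libraries after the group means were subtracted. Cux2 and Camk2a are at 0.90, Cux2 and Fezf2 at -0.81, and Slc17a7 is between 0.01 and 0.38 with the other markers.

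Other genes of the same layers varied along the same axis. These lists were scored per library as above, and 32 pairs of a list and a marker were computed after the data had been seen. Fezf2 had r = 0.96 (permutation p = 1e-05, adjusted 4e-05) and rho = 0.87 (permutation p = 1e-05, adjusted 5.33e-05) with 11 other layer 5 markers. This r was 0.94 without mice 101 and 8 and 0.95 within groups. Tle4 had r = 0.85 (permutation p = 1e-05, adjusted 4e-05) and rho = 0.79 (permutation p = 2e-05, adjusted 8e-05) with 9 other layer 6 markers, 0.79 without mice 117 and 38 and 0.83 within groups. Cux2 had r = 0.90 (permutation p = 1e-05, adjusted 4e-05) and rho = 0.87 (permutation p = 1e-05, adjusted 5.33e-05) with 13 other upper-layer markers, 0.85 without mice 8 and 60 and 0.88 within groups. The score of 9 oligodendrocyte markers moved with the same axis. It had r = 0.75 with Fezf2 (permutation p = 2e-05, adjusted 6.4e-05; rho = 0.79, permutation p = 2e-05, adjusted 8e-05) and -0.74 with Cux2 (permutation p = 4e-05, adjusted 0.000107; rho = -0.68, permutation p = 0.00034, adjusted 0.000989). Without mice 117 and 8 these were 0.74 and -0.66, and within groups 0.68 and -0.87. The summed oligodendrocyte level ran from 20318 normalized counts in the AS saline group to 48876 in the control saline group. It was 31040 to 48876 in control mice with saline and 26842 to 38482 with DEX, 25142 to 36430 and 31859 to 41044 in PS mice, and 20318 to 34791 and 32415 to 47672 in AS mice. Of its 9 genes, DEX lowered 3 in control mice (Opalin by a log2 fold change of -1.30, Ermn by -0.86 and Mag by -0.51, all of myelinating cells), against 6.49% of all genes called. In PS mice 0 were called by limma, against 5.36% of all genes, and 2 had an unadjusted p under 0.05, as did 1921 of all 14074 genes. The myelin gene Mobp rose in AS mice (0.96), where 8.77% of all genes were called. The part of oligodendrocytes in the differences of the layer markers was not tested.

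Because Bcl11b is also a striatal gene, the 6 striatal markers with a row, Drd1 and Ppp1r1b among them, were set beside it. Their summed level was 5279 to 5527 normalized counts in PS mice with saline and 5939.9 to 6221 with DEX, 5179.9 to 5895 and 6049 to 8018 in AS mice, and 4900.2 to 6348 and 6048 to 6668 in control mice. The sum was therefore higher with DEX in stressed mice without overlap, as Bcl11b was, and it was also mostly higher in control mice, where Bcl11b was not. Of these genes, DEX raised Drd1, the D1 dopamine receptor, in AS mice (log2 fold change 0.70). The striatal score had r = 0.65 with Bcl11b (permutation p = 0.0005, adjusted over 8 markers 0.002) and rho = 0.63 (permutation p = 0.00129, adjusted 0.00516). Without mice 8 and 38 this r was 0.48, and within groups it was 0.17, so that the relation lay largely between the groups. Within the 12 saline libraries it was 0.43 and within the 12 DEX libraries 0.44. Tbr1, which is not a gene of striatal neurons, had r = 0.69 (permutation p = 0.00015, adjusted 0.0012) and rho = 0.75 (permutation p = 2e-05, adjusted 0.00016), with 0.62 without mice 8 and 38, 0.59 within groups, 0.71 in the saline libraries and 0.57 in the DEX libraries. The part of striatal tissue in the Bcl11b difference was not tested.

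Markers of other cells in the tissue were called by limma after DEX as follows. Of all genes, 6.49% were called in control, 5.36% in PS and 8.77% in AS mice, beside which these counts are to be read. Of 11 GABAergic neuron markers, Vip (log2 fold change 0.30) rose in control mice and Lhx6 (0.34) and Pvalb (0.59) in AS mice. Of 7 astrocyte markers, Aldh1l1 rose in control (0.30) and PS mice (0.34), and Aqp4 fell in PS (-0.53) and AS mice (-0.49), as did Gfap in AS mice (-0.56). Of 7 microglia markers, P2ry12 fell in all 3 phenotypes (-0.42, -0.69 and -0.51) and Cx3cr1 in PS (-0.83) and AS mice (-0.73). Of 7 endothelial markers, Tek fell in PS (-0.78) and AS mice (-1.25), and Flt1 (-0.85) and Pecam1 (-0.69) fell in AS mice. Slc6a13, 1 of 4 leptomeningeal markers, rose in control mice (0.88). Their part in the differences of the layer markers was not tested.

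The other genes of each layer were read from lists of known markers. After DEX in control mice, limma called 0 of 9 other layer 6 markers, with 3 at an unadjusted p under 0.05, and 1 of 11 other layer 5 markers, Ldb2 (log2 fold change -0.36). Of all genes, 6.49% were called in that comparison, and 2154 of 14074 had an unadjusted p under 0.05. The medians of the layer 6, layer 5 and upper-layer lists were -0.26, -0.29 and 0.06, the last opposite in sign to that of Cux2 and Rorb. In PS mice 1 of 11 layer 5 markers rose, the repressor Bcl6 (0.43), against 5.36% of all genes called. Limma called 0 of 9 layer 6 and 0 of 13 upper-layer markers there. Of these, 4 and 1 had an unadjusted p under 0.05, as did 1921 of all 14074 genes. In AS mice 2 of 11 layer 5 markers rose, Bcl6 (0.51) and the natriuretic peptide receptor Npr3 (0.63), as did 2 of 9 layer 6 markers, Rprm (0.89) and Hs3st4 (1.0), against 8.77% of all genes called and 3.82% called up. The medians of the layer 5, layer 6 and upper-layer lists were 0.22, 0.09 and -0.13 in PS mice and 0.31, 0.13 and -0.10 in AS mice. In PS and AS mice they had the same sign as the medians of the deep-layer and upper-layer markers described above. In control mice 1 of 13 upper-layer markers rose, the calcium-binding protein Calb1 (0.30). In AS mice 0 of 13 were called by limma, and 4 had an unadjusted p under 0.05, as did 2565 of all 14074 genes.

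Over the 3 phenotypes, the common DEX effect lowered 2 of 13 other upper-layer markers, Rspo1 (log2 fold change -0.27) and the POU factor Pou3f3 (-0.18). It raised Npr3 (0.44) and Bcl6 (0.35) and lowered Ldb2 (-0.17) among 11 layer 5 markers, and raised Rprm (0.45) among 9 layer 6 markers. Of 8 other genes of pyramidal neurons in general, Neurod1 (0.24) and Neurod2 (0.19) rose and Neurod6 (-0.27) and Emx1 (-0.24) fell, all transcription factors. Neurod6 fell in control mice (-0.54), while Neurod1 rose in control (0.25) and AS mice (0.32) and Neurod2 in AS mice (0.26). After DEX 6.49% of all genes were called in control mice and 8.77% in AS mice. Of 5 layer 6b markers, Ccn2, a secreted matrix protein, rose in control mice (0.91) and in the common effect (0.56), and the others were not called. In the common effect 15.5% of all genes were called, 7.46% up and 8.01% down, beside which these counts are to be read. The saline comparisons set PS or AS against control mice. There limma called 0 of 13 other upper-layer, 0 of 11 layer 5 and 0 of 9 layer 6 markers. Of all genes, limma called 1.51% in PS and 0.156% in AS mice. An unadjusted p under 0.05 was found for 2, 1 and 0 of these markers in PS mice, against 1850 of all 14074 genes. In AS mice it was found for 2, 5 and 3, against 1548 of all genes.

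The most abundant genes of the layer lists were Lmo4 and Rasgrf2 (upper layers), Etv1 and Ldb2 (layer 5) and Grik3 and Nfia (layer 6), with means over the 24 libraries of 9206, 8618, 2354, 1632, 1779 and 1322 normalized counts. Etv1, an ETS factor, had group means of 2735 and 2189 in control mice with saline and DEX, 2281 and 2531 in PS mice, and 2075 and 2317 in AS mice, the order that Fezf2 also had within each phenotype.

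For each layer marker, the 2 genes with the most similar pattern were taken by Pearson's r of log2 values over the 24 libraries, among 12017 other genes that averaged 100 normalized counts or more. Fezf2 was nearest to Tox (0.96) and Nxph3 (0.95), and Bcl11b to Spon1 (0.95) and Esrrg (0.91). Cux2 was nearest to Prex1 (0.92), and Camk2a to Wfs1 (0.92), a gene of the upper-layer list, and Crtc1 (0.91). Tbr1 was nearest to Prickle1 (0.89) and Tnfrsf21 (0.89), and Tle4 to Grik3 (0.90), a gene of the layer 6 list, and Zmat4 (0.88). Slc17a7 was nearest to Tmem151a (0.91) and Mark4 (0.87), and Rorb to Lrrc4c (0.79) and Gpr135 (0.74). Rorb had the least close neighbours of the 8.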

How the data were processed

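RNA was taken from the PFC of 24 mice in 6 groups of 4, as the sample labels give them, 1 library per mouse. According to the study's methods, poly(A) RNA gave strand-specific libraries, reads were trimmed with fastp 0.20.1, aligned to mm10 with HISAT2 2.2.1, assigned to GENCODE genes with featureCounts (Subread 2.0) and normalized with DESeq2 1.36.0. The signal that the authors deposited is the read count of a gene over the size factor of its library. Dividing by the value of a single read gave whole numbers for 100% of the values in each library, to within 0.01 read, and these recovered reads gave the depth and entered the count models. The authors' tables of fold changes and p-values were not used. Gene positions and exon lengths came from the GENCODE annotation of GRCm38, whose gene versions matched those of the 8 markers.

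R 4.3.3 and limma 3.58.1 were used for all 14074 genes, with an intensity trend in eBayes, on log2(normalized count + 1), with 1 mean per group, all 24 libraries and Benjamini-Hochberg adjustment at 0.1, so that fold changes are on that log2 scale. The study's filter of at least 10 reads in each library was an alternative. On simulated counts for DEX in control mice, this step recovered 86% of genes changed by 0.5 and 97% of those changed by 1 on the log2 scale among 14074 genes, and 16.1% of its calls were unchanged genes. The changed genes were drawn at random from those that averaged 100 normalized counts or more. The recovered shares are therefore not those of the 8 layer markers, whose spread within groups differed from gene to gene. Correlations over libraries used two-sided permutation tests with 100000 resamples (numpy 2.4.6). Outlying libraries were sought with Dixon's test. Alternatives were edgeR 4.0.16 and DESeq2 1.42.0, library size (log2) as a covariate, fits to the compared groups alone, quantile normalization, a minimum mean of 100 normalized counts, a pseudocount of 8, and each library left out in turn. Leaving out the libraries with over 1000 olfactory bulb marker counts was chosen after seeing those sums.

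The layer markers and lists were chosen with earlier results of these data known. Beside the layer markers, the text names the genes of each list that were called, the most abundant of the layer lists, the 2 nearest genes of each marker, and Fkbp5, Tsc22d3 and Sgk1 as a check of the labels. Some genes that these rules select are not reported here.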

Additional observations from a re-analysis of the deposited data

Results flagged for a closer look

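In the 48 sets of 4 libraries (8 layer markers in 6 groups), 3 had a library farther from the others than Dixon's 95% limit allows, where chance gives about 1 in 20. Camk2a in mouse 6 of the PS DEX group measured 111510.0 normalized counts against 120882 to 122569 in the others, and the gap was 0.847 of the group's range. Bcl11b in mouse 117 of the control saline group measured 2247.0 against 1353 to 1490.2, a gap of 0.846 of the range. The same library had the highest summed olfactory bulb (4709) and oligodendrocyte (48876) markers of all, and their part in its Bcl11b value was not tested. Tle4 in mouse 2 of the PS saline group measured 882 against 752 to 765, a gap of 0.899 of the range.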

How the results depend on the processing

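No paired analysis was possible because mouse numbers are not shared between groups. No layer marker that was called changed its direction under any alternative run. The number of the 8 called, with each library left out in turn, was 1 to 5 in the F test, 0 to 1 in PS against control, 0 to 1 in both stressed classes against control, 0 to 1 for DEX in control, 0 to 1 for DEX in PS, 1 to 4 for DEX in AS, 1 to 3 for the common DEX effect and 0 to 3 for the AS interaction. A model of only the groups compared called 2 in PS against control, 1 in both stressed classes against control and 4 for DEX in PS. DESeq2 called 1, 2 and 1 in PS against control, both stressed classes against control and the AS interaction, and 3 each for DEX in AS and the common DEX effect. Log2 library size as a covariate left 1 for DEX in AS, and the libraries with at most 1000 olfactory bulb marker counts left 0 for DEX in PS. Rorb in the F test (limma adjusted p = 0.269) and Tbr1 after DEX in AS (0.113) also lost their calls with library size. The AS groups had the highest median depths, while the deepest single library was that of mouse 28 (PS, saline). The causes were not tested. Over all genes, limma called 213 in PS against control, and DESeq2 431, the model of only the groups compared 523, and the libraries without olfactory bulb markers 30. For AS against control the counts were 22 in limma and 99 in DESeq2, for both stressed classes 210 and 487, for AS against PS 0 and 11, for the PS interaction 0 and 23 and for the AS interaction 49 and 439. With at least 10 reads in each library AS against control gave 9, and with a mean of at least 100 it gave 5. The AS interaction gave 1 with that mean, 7 with library size, and 77 in edgeR. With only the groups compared it gave 82, and DEX in AS gave 753 instead of 1234.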
